A study of Bos taurus with 6 samples.

Results

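De novo fatty acid synthesis was examined in beef muscle through 10 genes chosen by name: FASN, ACACA, ACLY, SCD, ELOVL5, ELOVL6, THRSP, ACSS2, ME1 and SREBF1. Their probe sets were all non-control probe sets whose platform annotation gives exactly 1 gene symbol, equal to one of these names, which made 15 of 24016 probe sets. All 10 genes were found, of 9155 genes that the table names in this way. FASN, ACLY, SCD, ELOVL5, ELOVL6, THRSP and ACSS2 have 1 probe set each, ACACA and ME1 have 2 each, and SREBF1 has 4.

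The 3 restricted steers were kept on a diet with limited vitamin A, and the 3 supplemented steers were given 296.8 IU of vitamin A per kg body weight by mouth once a week. All 6 were castrated males of the Japanese Black breed, aged 13 to 14 months at the start and fattened for 7 months on feed meant for a gain of 1.0 kg a day. Their labelled ages were 589, 595 and 611 days for restricted steers 1, 2 and 3, and 600, 612 and 618 days for supplemented steers 1, 2 and 3. RNA came from the longissimus thoracis, a long muscle of the back, and each array holds 1 steer. The muscle was taken as whole tissue, which holds muscle fibres, fat cells, connective tissue and vessels. Fewer cells of a type and less RNA per cell cannot be told apart in it.

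Fatty acids are built in the cytosol from acetyl-CoA. ACSS2 makes acetyl-CoA from acetate, which in ruminants is the main carbon source for fat, and ACLY makes it from citrate. ACACA turns it into malonyl-CoA, FASN joins these units into palmitate, and ME1 supplies part of the NADPH that FASN consumes. ELOVL6 lengthens palmitate to stearate, SCD puts a double bond into stearate to give oleate, the main fatty acid of beef fat, and ELOVL5 lengthens polyunsaturated fatty acids. THRSP is a small protein of lipid-making tissues that promotes fatty acid synthesis, and SREBF1 encodes a transcription factor that switches on the genes of this pathway. In cattle the pathway runs mainly in fat cells, and in muscle mainly in the marbling fat between the fibres.

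The values are those the authors deposited, taken as log2, and run from 4.81 to 12.8 over the table. They differ very little between arrays: the range of a probe set over the 6 arrays had a median of 6.77e-07 log2 units. The step that made this narrow spread is not given in the sources used here, so no difference is read as a fold change, and the size of a range is compared between probe sets only as a description. Array medians were up to 8.88e-06 apart, which is more than the range of 6 of the 15 probe sets described here, and their order of steers can turn with a small shift of an array. All 8 measured genes of the muscle fibre list, among them ACTA1 at 12.67, had values of 9.71 or more.

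In the fatty acid synthesis genes most of the variation lay among steers of the same diet: diet took from 0.657% to 42.6% of the variation of a probe set over the 6 steers. As deposited, supplemented steer 2 had the lowest value in 11 of the 15 probe sets and in every probe set of 9 of the 10 genes, SREBF1 being the exception. Over all tested probe sets it was the lowest of the 6 steers in 14.6%. Restricted steer 2 was next to lowest in 9 of these 11. Once arrays were moved to a common median, supplemented steer 2 was lowest in 8 of the 15, against 3.06% of all tested probe sets. Both probe sets of ACACA and the second of ME1 then had restricted steer 1 lowest. None of the 15 differed between the diets at a limma adjusted p under 0.05 (all at 1), and none had an unadjusted p under 0.05, against 0.00416% and 4.08% of all tested probe sets.

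**Figure D1:**
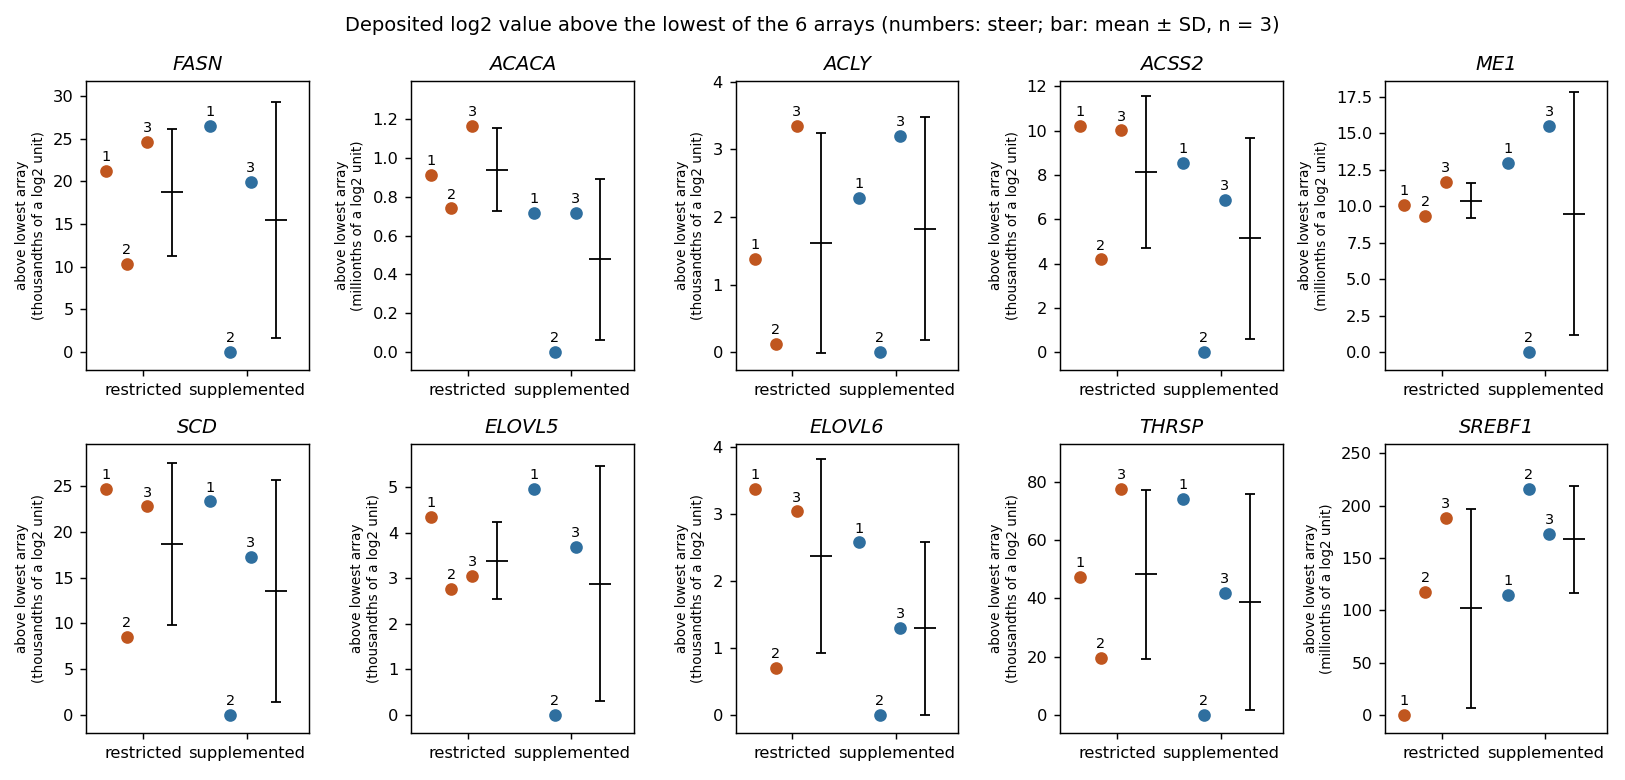
Deposited log2 value of the probe set with the highest mean of each gene, per steer, as the amount above the lowest of the 6 arrays (y axis, in thousandths or millionths of a log2 unit as labelled). Points are single steers numbered 1 to 3, restricted in orange and supplemented in blue, and bars are the mean ± SD of 3 steers. Supplemented steer 2 is at 0 in every panel but that of SREBF1, where it is the highest.

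FASN, the enzyme that builds palmitate, had values of 7.3518, 7.3409 and 7.3551 in restricted steers 1, 2 and 3, against 7.3570, 7.3305 and 7.3505 in supplemented steers 1, 2 and 3. Supplemented steer 2 was the lowest, restricted steer 2 came next, and the other steers of the diets were intermixed. The range of 0.0265 log2 units over the 6 arrays is the 12th widest of all 24016 probe sets. The difference of restricted minus supplemented steers was 0.00326 (SE 0.00855, 95% interval -0.0195 to 0.0260, limma adjusted p = 1).

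ACACA, which makes malonyl-CoA, has 2 probe sets with narrow ranges of 1.16e-06 and 9.80e-07. In the first, the values above the lowest array were 0.914, 0.740 and 1.163 millionths of a log2 unit in restricted steers 1, 2 and 3, against 0.715, 0 and 0.716 in supplemented steers. All 3 restricted steers lay above all 3 supplemented ones. The difference of 0.462 millionths (SE 0.255) had an unadjusted p of 0.136, the smallest of the 15 probe sets, and a limma adjusted p of 1. After every array was moved to a common median, the difference was -1.762e-06, on the lower side. In the second probe set the values were 0.127, 0.157 and 0.806 millionths in restricted steers, against 0.980, 0 and 0.964 in supplemented steers, and the difference was -0.285 millionths. As deposited, the probe sets thus differ in sign, and share supplemented steer 2 as the lowest array. After the move to a common median, restricted steer 1 was the lowest in both.

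The enzymes that supply acetyl-CoA followed the order seen in FASN at the low end. ACSS2, which activates acetate, had values of 6.1939, 6.1879 and 6.1937 in restricted steers 1, 2 and 3, against 6.1923, 6.1837 and 6.1906 in supplemented steers. The steers numbered 2 were the lowest of their diets, and restricted steers 1 and 3 were the highest of the 6. The difference was 0.00299 (SE 0.00310, 95% interval -0.00525 to 0.0112, limma adjusted p = 1). ACLY, which splits citrate, had 5.6334, 5.6321 and 5.6353 in restricted steers, against 5.6343, 5.6320 and 5.6352 in supplemented steers. Here both steers numbered 2 were nearly level at the bottom and both steers numbered 3 nearly level at the top. The difference was -0.000217 (SE 0.00126, limma adjusted p = 1), and the diets accounted for 0.657% of the variation of this probe set over the 6 steers.

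ME1, a cytosolic enzyme that yields NADPH, showed the same lowest steer on a far smaller scale. Its first probe set was 10.09, 9.361 and 11.68 millionths of a log2 unit above the lowest array in restricted steers 1, 2 and 3, against 13.00, 0 and 15.49 in supplemented steers 1, 2 and 3. Supplemented steer 2 stood apart below the other 5 steers. The second probe set was 0.641, 0.123 and 0.553 millionths above the lowest array in restricted steers, against 0.701, 0 and 0.304 in supplemented steers. After arrays were moved to a common median, restricted steer 1 was the lowest in this second probe set. Differences were 0.881 and 0.104 millionths, both with a limma adjusted p of 1. That of the first probe set was -1.343e-06 once arrays were moved to a common median and -1.4378e-05 with quantile normalization.

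The enzymes that lengthen and desaturate the product had the same lowest steers. SCD, which makes oleate, had values of 8.1364, 8.1202 and 8.1345 in restricted steers 1, 2 and 3, against 8.1350, 8.1117 and 8.1290 in supplemented steers. The steers numbered 2 were the lowest of both diets, and the diets overlapped. The range of 0.0247 is the 16th widest of the table, and the difference was 0.00515 (SE 0.00817, 95% interval -0.0166 to 0.0269, limma adjusted p = 1). ELOVL6, which makes stearate, had 5.1899, 5.1872 and 5.1895 in restricted steers, against 5.1891, 5.1865 and 5.1878 in supplemented steers. Its difference of 0.00108 (SE 0.00106, 95% interval -0.00174 to 0.00390, limma adjusted p = 1) was 0.786 within-group SDs. The diets took 18.8% of its variation, the highest share among the 7 genes with the wide ranges described next. ELOVL5, which acts on polyunsaturated fatty acids, had 5.7487, 5.7471 and 5.7474 in restricted steers, against 5.7493, 5.7444 and 5.7480 in supplemented steers. Its difference was 0.000508 (SE 0.00148, limma adjusted p = 1), and its SD was 0.000843 in restricted and 0.00258 in supplemented steers (n = 3 each).

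THRSP, the lipogenic protein also called Spot 14, had the same steers at the bottom. Its values were 7.0252, 6.9974 and 7.0553 in restricted steers 1, 2 and 3, against 7.0518, 6.9778 and 7.0197 in supplemented steers 1, 2 and 3. Restricted steer 3 and supplemented steer 1 were close together at the top, and the steers numbered 2 were the lowest of both diets. Its range of 0.0775 is the 2nd widest of all tested probe sets, after FOS. The difference was 0.00953 (SE 0.0257, 95% interval -0.0588 to 0.0779, limma adjusted p = 1), a small part of the range within either diet, which was 0.0579 in restricted and 0.0740 in supplemented steers.

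SREBF1, the transcription factor gene, did not follow the enzymes. Its probe set with the highest mean was 0, 117.4 and 188.2 millionths of a log2 unit above the lowest array in restricted steers 1, 2 and 3, against 114.5, 216.1 and 173.3 in supplemented steers 1, 2 and 3. Restricted steer 1 was the lowest and supplemented steer 2 the highest, so that the steer lowest in FASN and THRSP was at the top here. The difference was -66.1 millionths (SE 58.8, 95% interval -222.7 to 90.6, limma adjusted p = 1). The second probe set also had restricted steer 1 lowest, and the third and the fourth had supplemented steer 3 lowest. The differences of these 3 were -0.598, 0.0957 and 0.314 millionths, with ranges of 6.11e-06, 6.63e-07 and 1.03e-06, all below the spread of the array medians. As deposited, the 4 probe sets of SREBF1 thus give no common order of steers, though the first and second share restricted steer 1 lowest and supplemented steer 1 next. The order in the 3 with ranges below that spread can turn with a small shift of an array.

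The genes fell into a wide and a narrow set by their range over the steers. THRSP, FASN, SCD, ACSS2, ELOVL5, ELOVL6 and ACLY, 7 of the 15 probe sets, ranged over more than 0.001 log2 units, as did 0.829% of all tested probe sets. The narrowest of them, ACLY with 0.00334, is the 80th widest of the table. The other 8, of ACACA, ME1 and SREBF1, ranged over at most 0.000216. The limit of 0.001 was chosen after the values were seen, and it lies between the groups. Because the scale of the spread may differ between probe sets for an unstated reason, the width is a property of the deposited values and no measure of how strongly a gene varied.

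**Figure D2:**
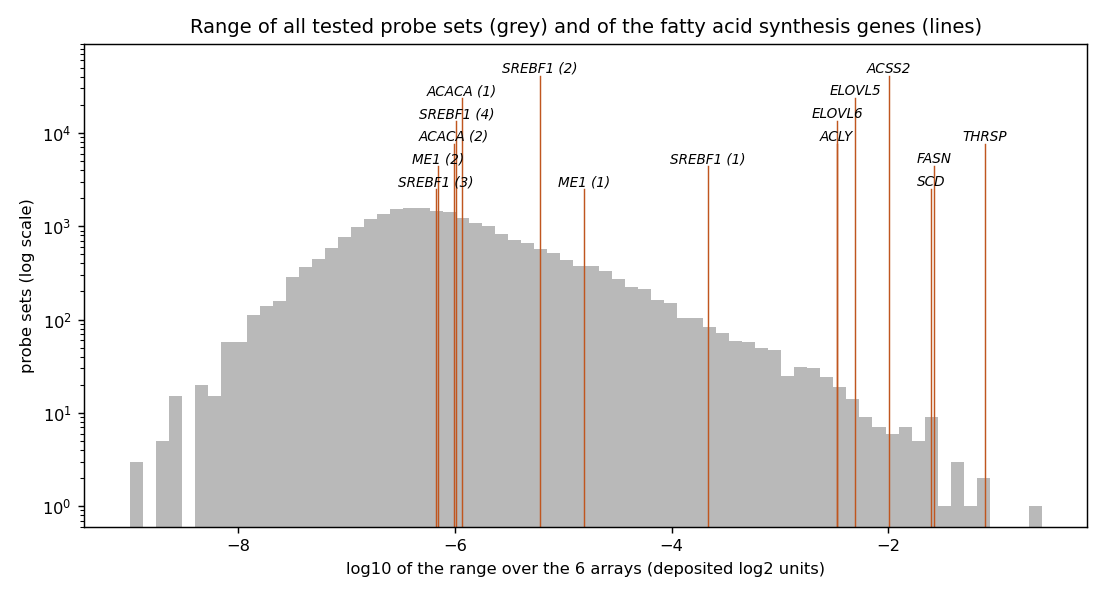
Number of probe sets (y axis, log scale) by the log10 of their range over the 6 arrays in deposited log2 units (x axis), in grey for all tested probe sets with a range above 0, with orange lines at the 15 probe sets of the fatty acid synthesis genes, numbered where a gene has several. The 7 probe sets of THRSP, FASN, SCD, ACSS2, ELOVL5, ELOVL6 and ACLY lie in the right tail, and those of ACACA, ME1 and 3 of SREBF1 lie in the body.

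All 7 wide probe sets had supplemented steer 2 lowest and restricted steer 2 next. Among all 199 probe sets with such a range, this order was seen in 18.6%, and supplemented steer 2 was lowest in 36.2%. With 0 set for the lowest and 1 for the highest array, restricted steer 2 lay between 0.0350 in ACLY and 0.557 in ELOVL5. The highest steer was restricted steer 1 in 3 of the 7, restricted steer 3 in 2 and supplemented steer 1 in 2. Mean positions over the 7 were 0.814, 0.314 and 0.907 in restricted steers 1, 2 and 3, against 0.883, 0 and 0.679 in supplemented steers 1, 2 and 3. By these means each diet held 2 steers high and 1 low, but single genes differed. In ELOVL5 restricted steer 3, at 0.615, lay close to restricted steer 2, and in ELOVL6 supplemented steer 3 lay at 0.385. The SD of the supplemented steers exceeded that of the restricted steers in 6 of the 7, all but ELOVL6, against 51.8% of all tested probe sets. Once arrays were moved to a common median, supplemented steer 2 was lowest in 8 of the 15 probe sets. That move is too small to reorder the steers in the 7 wide probe sets, so it bears only on the narrow ones, and it made restricted steer 1 the lowest in 86.9% of all tested probe sets.

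Over the 6 arrays, SCD (Pearson r = 0.970), THRSP (0.957), ACSS2 (0.950), the second probe set of ME1 (0.921) and ELOVL5 (0.906) ran most closely with FASN. These coefficients describe 6 arrays of which supplemented steer 2 is the low one in each gene. Without that steer they were 0.917 for SCD, 0.943 for THRSP, 0.840 for ACSS2, 0.896 for ME1 and 0.655 for ELOVL5. Of the other 14 probe sets, 5 were above 0.9 over the 6 arrays, as were 0.841% of all tested probe sets. The 5 genes outside the pathway with the highest coefficients were MPP1 (0.985), CETN4 (0.981), LOC504295 (0.979), TMED3 (0.978) and TBC1D14 (0.976). Their ranges were from 2.40e-08 to 5.25e-06, below the spread of the array medians. The range of the second probe set of ME1, 7.01e-07, was below that spread too. Its order of steers, and so its coefficient, can turn with a small shift of an array.

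The question of the study was what vitamin A restriction changes in muscle, and for fatty acid synthesis the comparison of diets gave 0 calls among 15 probe sets by limma, 0 also at an unadjusted p under 0.05. DHRS3 was the 1 probe set of the table past the adjusted threshold (limma adjusted p = 0.000794). Its difference was -0.000437, on the lower side in restricted steers. Its limma adjusted p stayed under 0.05 when any single steer was dropped (0.00991 to 0.0492). The same held for arrays moved to a common median (3.84e-05), quantile normalization (0.000660), array weights (0.000622), trend and robust moderation (0.000483) and the filter on dim probe sets (0.000422). Its adjusted p was above 0.05 once age entered the fit (0.0617), under the replicate block (0.521) and without both steers numbered 2 (0.464). The difference in these fits was -0.000436 to -0.000437. Values were higher in restricted steers in 11 of 15 probe sets, against 48.5% of all. Moving the arrays to a common median lowered every difference by the same small amount and left 6 of 15 higher, against 6.96% of all, and 6 of the 10 genes higher by their probe set of highest mean. The median difference was 0.294 within-group SDs over the 15 and -0.0322 over all tested probe sets. The diets did not overlap in 1 of the 15, the ACACA probe set described above with restricted steers higher, against 4.12% of all in that direction and 8.76% in either. Diet took a median of 4.46% of the variation over steers in the 15 probe sets, and 11.3% in all tested ones. With 3 steers a diet the intervals are wide, and these values do not show that the diets are alike.

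The sign of the difference rested on supplemented steer 2 in several genes. With all steers, 8 of 10 genes were higher in restricted steers by their probe set of highest mean, all but ACLY and SREBF1. Without supplemented steer 2, 3 were higher and 7 lower, with FASN at -0.00448, SCD at -0.00162, THRSP at -0.00979, ELOVL5 at -0.000934 and the first probe set of ME1 at -3.868e-06. ACSS2, ELOVL6 and ACACA stayed on the higher side with any single steer left out. Without restricted steer 2, 9 of 10 genes were higher, FASN by 0.00745, SCD by 0.0102 and THRSP by 0.0238. Without restricted steer 3, 7 were higher and 3 lower, with THRSP at -0.00515. With both steers numbered 2 left out, 5 were higher and 5 lower.

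**Figure D3:**
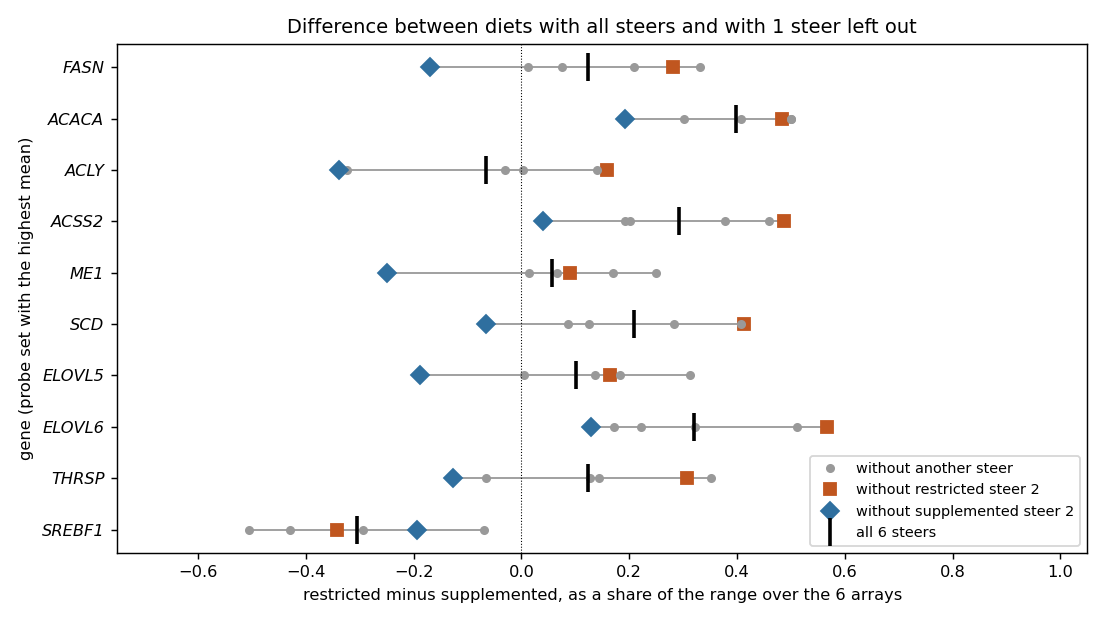
Difference of restricted minus supplemented steers of each gene, divided by the range of its probe set over the 6 arrays (x axis), with all 6 steers (black bar) and with 1 steer left out (points). The blue diamonds, without supplemented steer 2, lie below 0 for FASN, ACLY, ME1, SCD, ELOVL5, THRSP and SREBF1.

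Genes next to the pathway shared the order in part. In the list of substrate and NADPH supply, 11 of 14 genes were measured. Of these, 7 were higher and 4 lower in restricted steers, with 0 past the adjusted threshold in either direction (median 0.442 within-group SDs). Counts of higher and lower genes in this and the later lists are of the values as deposited. Moving the arrays to a common median shifts every difference by -2.22e-06. Genes higher by less than this amount then turn lower, here ACO1. SLC25A1, the carrier that exports citrate from mitochondria, and PGD, TKT and TALDO1 of the pentose phosphate pathway had supplemented steer 2 lowest and restricted steer 2 next. This order was seen in 4 of 11 genes, against 3.63% of all tested probe sets, and these 4 were singled out after their values were seen. TKT, which had the widest range of them, had values of 5.6751, 5.6743 and 5.6753 in restricted steers 1, 2 and 3, against 5.6751, 5.6738 and 5.6748 in supplemented steers 1, 2 and 3. The 3 smallest unadjusted p values of the list were those of ACO1, a cytosolic aconitase (0.254), PC, pyruvate carboxylase (0.378), and ME3, a mitochondrial malic enzyme (0.405).

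Other elongases and desaturases had 10 of 17 genes measured, 7 higher and 3 lower, with 0 past the adjusted threshold (median 0.145 SDs). Of the 7, all but CYB5A were higher by less than the shift of the common-median move. SCD5, a second desaturase, differed by -3.67e-06 or -2.03 SDs (limma unadjusted p = 0.0521) and FADS2, a desaturase of polyunsaturated fatty acids, by -8.93e-08 or -1.99 SDs (0.0947). CYB5R3, which passes electrons to desaturases through cytochrome b5, differed by 2.11e-06 (0.562). These are the 3 smallest p values of the list, and the ranges of SCD5 and FADS2 were under the spread of the array medians.

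Genes that control lipogenesis had 24 of 29 measured, 10 higher and 14 lower, with 0 past the adjusted threshold (median -0.135 SDs). Of the 10, NR1H3, MBTPS2, AKT1, TRIB3 and PRKAG1 were higher by less than the shift of the common-median move. MLYCD, which degrades malonyl-CoA, differed by 5.39e-05 or 1.94 SDs (limma unadjusted p = 0.0589). USF2, a transcription factor that binds lipogenic promoters, differed by -2.72e-06 (0.0788), and MLX, a partner of the carbohydrate response factor, by -1.93e-06 (0.129). As deposited, supplemented steer 2 was lowest and restricted steer 2 next in 0 of these 24 genes. The same order was seen in 2 of the 10 elongases and desaturases, and in 2 of the 7 genes described next. Once arrays were moved to a common median, these counts were 0, 1 and 0, and that of substrate supply stayed at 4 of 11. In MID1IP1 and MBTPS1, 2 of the 24, restricted steer 2 was lowest and supplemented steer 2 next. Both steers were the lowest 2, in either order, in 7.27% of all tested probe sets. Mitochondrial fatty acid synthesis, a separate pathway that feeds lipoic acid, had 7 of 7 genes measured, 4 higher and 3 lower, with 0 past the threshold (median 0.0888 SDs). Its smallest p values were those of NDUFAB1, the acyl carrier protein (0.291), OXSM, its condensing enzyme (0.436), and CBR4, a reductase subunit (0.648).

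Fat cell markers moved with the wide genes in part, and their part in the result was not tested. Of 14 listed adipocyte markers 13 were measured, 12 higher and 1 lower in restricted steers, with 0 past the adjusted threshold and 1, CFD, at an unadjusted p under 0.05 (0.000717, median of the list 1.15 SDs). ADIPOQ (limma unadjusted p = 0.0747) and CIDEA (0.0755) came next. Of the 12 higher markers, LEP, CEBPA and RETN were higher by less than the shift of the common-median move. The summed log2 value of the 13 ran from 79.532 to 79.562 in restricted steers, against 79.515 to 79.549 in supplemented steers. It mainly follows the markers with the widest ranges, FABP4 (0.0263), CIDEC (0.0113) and LPL (0.00679). None of the defining markers is at 0, since the deposited scale does not reach it. As deposited, supplemented steer 2 was lowest in 6 of the 13 and supplemented steer 3 in 6, and restricted steer 1 was highest in 9. Once arrays were moved to a common median, supplemented steer 2 was lowest in 7, supplemented steer 3 in 2 and restricted steer 1 in 2. Restricted steer 2 and supplemented steer 1 were then lowest in 1 each. FABP4, the fatty acid binding protein of fat cells, had values of 8.1795, 8.1647 and 8.1737 in restricted steers 1, 2 and 3, against 8.1736, 8.1531 and 8.1650 in supplemented steers 1, 2 and 3. It shared both lowest steers with FASN, and so did CIDEC, a lipid droplet protein, and LIPE, the hormone-sensitive lipase. These 3 were singled out after their values were seen.

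**Figure D4:**
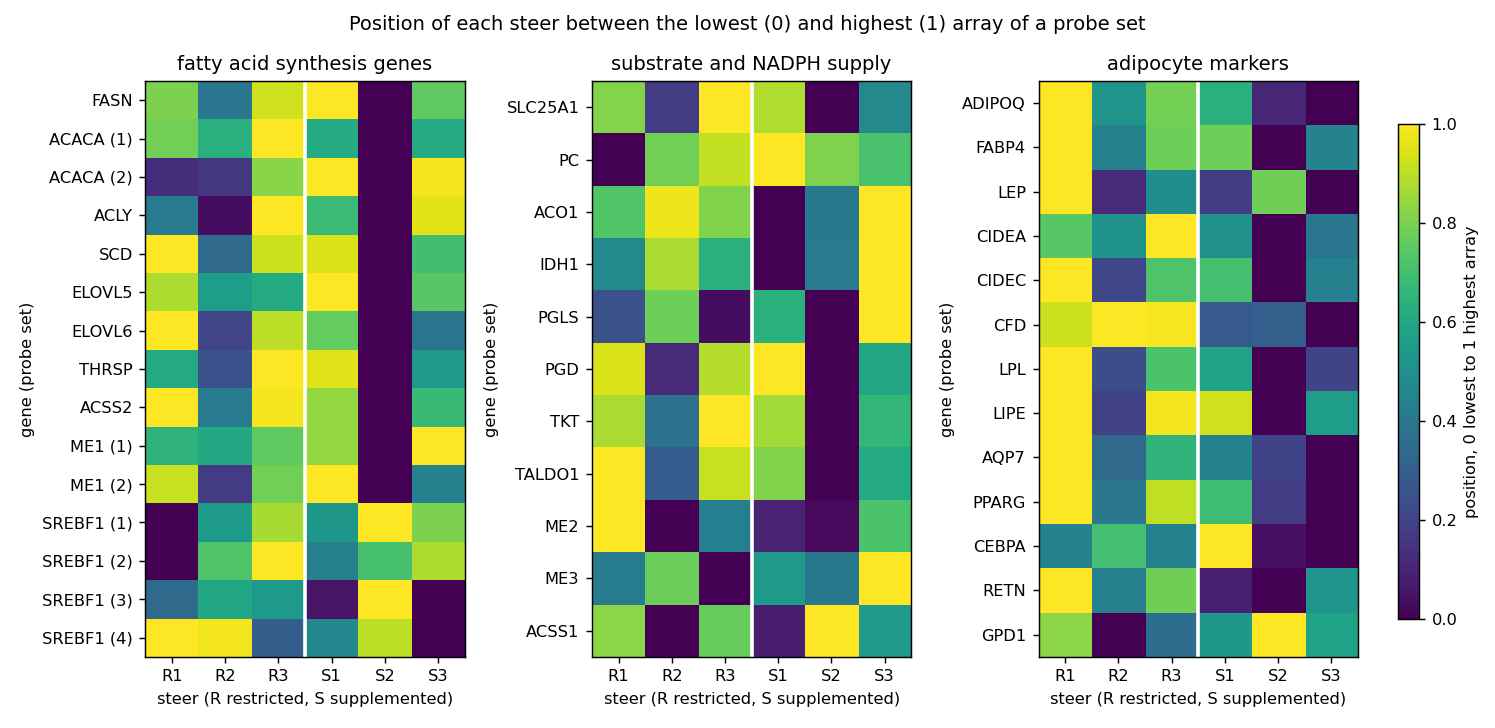
Position of each steer (x axis, R restricted and S supplemented, with steer number) between the lowest array at 0 and the highest at 1 of a probe set (colour), for the fatty acid synthesis genes, the genes of substrate and NADPH supply and the adipocyte markers (rows). Positions are of the values as deposited. The column of S2 is dark in all rows of FASN, ACACA, ACLY, SCD, ELOVL5, ELOVL6, THRSP, ACSS2 and ME1. In the adipocyte markers the dark cells are shared by S2 and S3. Once arrays were moved to a common median, S2 was lowest in 7 of these markers and S3 in 2.

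Markers of connective tissue also had supplemented steer 2 low, with 5 of 5 measured, 2 higher and 3 lower in restricted steers, and supplemented steer 2 lowest in 3. Their summed log2 value ran from 33.845 to 33.852 in restricted steers and from 33.842 to 33.855 in supplemented steers. It mainly follows COL3A1, which had the widest range (0.0111). Supplemented steer 1 was highest in 5 of 5. The 3 smallest unadjusted p values were those of PDGFRA (0.179), DCN (0.515) and LUM (0.517). Of the muscle fibre list 8 of 11 were measured, 2 higher and 6 lower, with MYH1 (0.00836), MB (0.346) and ACTA1 (0.606) smallest. Their summed value was 90.1346 to 90.1353 in restricted steers and 90.1346 to 90.1350 in supplemented steers. Supplemented steer 2 was lowest in 3 of 8 as deposited. Once arrays were moved to a common median, it was lowest in 0 of these 8, and still in 3 of the 5 connective tissue markers. Endothelial markers had 5 of 5 measured, 4 higher and 1 lower, with CDH5 (0.199), TEK (0.234) and PECAM1 (0.407) smallest. Macrophage and lymphocyte markers had 5 of 6 measured, 3 higher and 2 lower, with CSF1R (0.394), CD14 (0.655) and CD3E (0.690) smallest. Supplemented steer 2 was lowest in 1 of 5 endothelial and 0 of 5 macrophage and lymphocyte markers. These are limma unadjusted p values, and 0 genes of these 4 lists passed the adjusted threshold.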

How the data were processed

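Biotin-labelled RNA was made from 100 ng total RNA with a GeneChip kit, per the labels' protocols. The table the authors deposited holds 24128 probe sets for 6 arrays. Its values, taken as log2 from their size, were summarized per probe set by the authors before they were deposited. The sources used here do not give their log base, background correction or normalization. After 112 control probe sets were left out, limma 3.58.1 in R 4.3.3 (lmFit, eBayes without trend) was fitted to all 24016 probe sets, as restricted minus supplemented. P-values were adjusted by Benjamini-Hochberg over all probe sets, with a threshold of 0.05. Values were multiplied by 1e+09 for the fit and divided by it afterwards. The method was tested on simulated data with planted differences far larger, in within-group SDs, than those of the fatty acid synthesis genes. That test does not show what the fit can find at their size. Lists used 1 probe set per gene, that of the highest mean. Every probe set of the 10 genes is described, beside the 3 smallest p values of each list and the 5 genes most like FASN. The genes and lists were chosen with earlier results of these data known. All 10 gene identifiers matched the ARS-UCD2.0 annotation with unchanged symbols. No array build is named, so no coordinates are given. Arrays give no counts, and their number limits the precision. Each array is 1 steer, so p-values set the diet difference against the spread among arrays within a diet. That spread holds variation between steers and technical variation, which cannot be told apart here.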

Additional observations from a re-analysis of the deposited data

How the results depend on the processing

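The count of fatty acid synthesis probe sets past the adjusted threshold was 0 under every alternative run: arrays moved to a common median, quantile normalization, age as a covariate, a replicate block, array weights, trend and robust moderation, a filter on dim probe sets, each steer left out in turn, and, added after seeing the data, both steers numbered 2 left out. The count over all probe sets, 1 as planned, was 35 with quantile normalization, 0 with age as a covariate, 0 with the replicate block, 0 with both steers numbered 2 left out, and 1 to 2 with single steers left out, the 2 being without supplemented steer 3. Quantile normalization left the SREBF1 probe set of highest mean with equal values on all arrays, so it gave no difference there, and gave ACACA a difference of 0. The 10 genes were 6 higher and 4 lower in restricted steers with arrays moved to a common median, against 8 and 2 as deposited. The number of probe sets with supplemented steer 2 lowest was 11 as deposited and 8 with arrays moved to a common median.

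Leaving out single steers gave differences from -0.00448 to 0.00875 in FASN, 2.235e-07 to 5.815e-07 in ACACA, -0.00113 to 0.000529 in ACLY, -0.00162 to 0.0102 in SCD, -0.000934 to 0.00155 in ELOVL5, 0.000434 to 0.00191 in ELOVL6, -0.00979 to 0.0272 in THRSP, 0.000419 to 0.00496 in ACSS2, -3.868e-06 to 3.878e-06 in ME1 and -0.000109 to -1.514e-05 in SREBF1. With arrays moved to a common median ACACA turned to -1.762e-06 and ME1 to -1.343e-06, and with quantile normalization ME1 to -1.4378e-05. With age as a covariate ACLY turned to 0.000654, ELOVL5 to -0.000349 and SREBF1 to 6.832e-06, and with array weights ACLY to 0.000120. With both steers numbered 2 left out FASN turned to -0.000297, ELOVL5 to -0.000623 and ME1 to -3.359e-06. The cause was not tested. With 3 steers a diet in matched numbers, the replicate block leaves the differences as they are and changes only their errors. In residual SDs each gene's difference was larger with the block, from ME1 at 0.169 against 0.148 to ACSS2 at 3.32 against 0.745. The mean of all probe sets could move only ACACA, ME1 and SREBF1, which kept their signs.

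The labels number the steers 1 to 3 in both diets and do not say that a number marks a pair. Deviations of same-numbered steers from their diet means correlated at 0.0374, 0.0151 and 0.0152 over probe sets, each the highest for its steer. Of all tested probe sets, 85.9% ranged over less than the spread of the array medians. These low coefficients therefore cannot decide whether the numbers mark pairs. With 3 arrays a diet and no stated normalization, small differences cannot be resolved.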
